A study of Mus musculus with 8 samples.

Results

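The genes described are 9 markers of CA1 pyramidal cells, the output neurons of hippocampal field CA1: Wfs1, Pou3f1, Fibcd1, Mpped1, Man1a, Dcn, Gpr161, Spink8 and Ndst4. They were found by name in a table of read counts with 46078 rows, each gene had 1 row, and all 9 passed the filter on low counts, as did 15996 genes in all. The libraries were made from poly(A) RNA of the whole hippocampus of 9-week-old mice of strain C57BL/6J. 4 libraries came from wild-type (WT) mice. The other 4 came from hemizygous carriers of the transgene Tg(Camk2a-cre)T29-1Stl, called T29-1 Cre here, which express Cre recombinase from the Camk2a promoter. The labels name no floxed allele in either group, and the Cre is driven in forebrain excitatory neurons, the class to which CA1 pyramidal cells belong. They do not say whether each library is 1 animal, and the spread that the p-values measure may be technical.

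CA1 pyramidal cells receive input from field CA3 and from the entorhinal cortex and project to the subiculum and beyond. Their identity genes are not uniform: in the mouse, Wfs1 marks dorsal CA1 most strongly, while Dcn labels neurons of ventral CA1 and also fibroblasts of the meninges and vessels. Several of these genes are shared with other places, as Wfs1, Pou3f1 and Mpped1 are also expressed in neocortex. In a library of whole hippocampus, fewer CA1 cells and less RNA per CA1 cell cannot be told apart.

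The libraries held 23358289 to 30882631 counts, so that a member rested on 226 (Spink8) to 7846 (Mpped1) reads per library. WT replicate 4 stood apart on the first principal component (26.1% of the variance) of log2 CPM, the reads of a gene scaled to a common library size, where it scored 33.4 and the other 7 scored -8.74 to 0.69. For some of the values that move with it, the value without it is also given. Fixed marker lists of hippocampal and other cells were used to describe the libraries. All 6 CA2, all 6 CA3 and all 9 dentate granule cell markers were tested, with summed levels of 218 to 263, 199 to 298 and 473 to 664 CPM over the 8 libraries. All 5 striatal, all 4 thalamic and all 9 neocortical and subicular markers were tested too. Of the 104 tested genes of the 16 lists besides the members, 0 were at 0 in any library. These genes had already passed the filter on low counts, so neither this count nor the numbers of markers tested check the tissue.

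The 9 genes are protein-coding and lie on 8 chromosomes of GRCm38, as annotated by GENCODE M21, so only Dcn and Man1a share a chromosome. Wfs1 is at chr5:36966104-36989205 on the minus strand, Pou3f1 at chr4:124656807-124660655 on the plus strand and Fibcd1 at chr2:31813290-31846005 on the minus strand. Mpped1 (chr15:83779467-83858494), Gpr161 (chr1:165295789-165326745), Spink8 (chr9:109812280-109826633) and Ndst4 (chr3:125404076-125728899) are on the plus strand. Dcn (chr10:97479609-97518143, plus strand) and Man1a (chr10:53904785-54076609, minus strand) are far apart. The values are per gene name, with isoforms not told apart.

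Levels of the members were compared per kilobase of annotated exon, with the exons of all isoforms merged, since a long transcript yields more reads. This length exceeds the longest transcript for some genes, as for Man1a (9647 and 5137 bases) and Ndst4 (11720 and 7417 bases). The order of the levels can change with this choice, and the order per longest transcript was not computed. Mpped1, which encodes a metallophosphoesterase-domain protein, had the highest level, 61.9 ± 5.64 CPM per kb in the T29-1 Cre libraries and 60.4 ± 0.891 in the WT libraries (mean ± SD, n = 4 per genotype). Fibcd1, a membrane receptor that binds acetylated sugars, followed at 48.5 ± 1.23 and 50.1 ± 2.04 CPM per kb in the same order, and its range over the 8 libraries did not overlap that of Mpped1. Wfs1, the endoplasmic reticulum membrane protein wolframin, was at 37.4 ± 10.3 and 38.2 ± 2.35 CPM per kb, below Fibcd1 without overlap. Pou3f1, a POU-domain transcription factor, was at 31.3 ± 3.65 and 32.1 ± 2.997 CPM per kb. It overlapped Wfs1, which was the higher of the pair in 7 of 8 libraries.

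The other 5 members lay lower. Gpr161, a receptor of the primary cilium that restrains Hedgehog signalling, was at 14.4 ± 1.46 CPM per kb in WT, and its range over all libraries, 12.9 to 16.6, did not overlap that of Pou3f1. Spink8, a predicted secreted inhibitor of serine proteases with a Kazal domain, was at 12.5 ± 0.939 CPM per kb in WT on an exon length of 0.821 kb, the shortest of the 9. Man1a, a Golgi mannosidase that trims N-linked glycans, and Dcn, the small proteoglycan decorin, were at 9.25 ± 1.03 and 8.27 ± 1.32 CPM per kb in WT. Neighbours in the order from Gpr161 to Dcn overlapped in range. Ndst4, an enzyme that sulfates heparan sulfate chains, was the lowest at 3.68 ± 0.492 CPM per kb (SD, n = 4 in each case), with no overlap with Dcn.

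**Figure D1:**
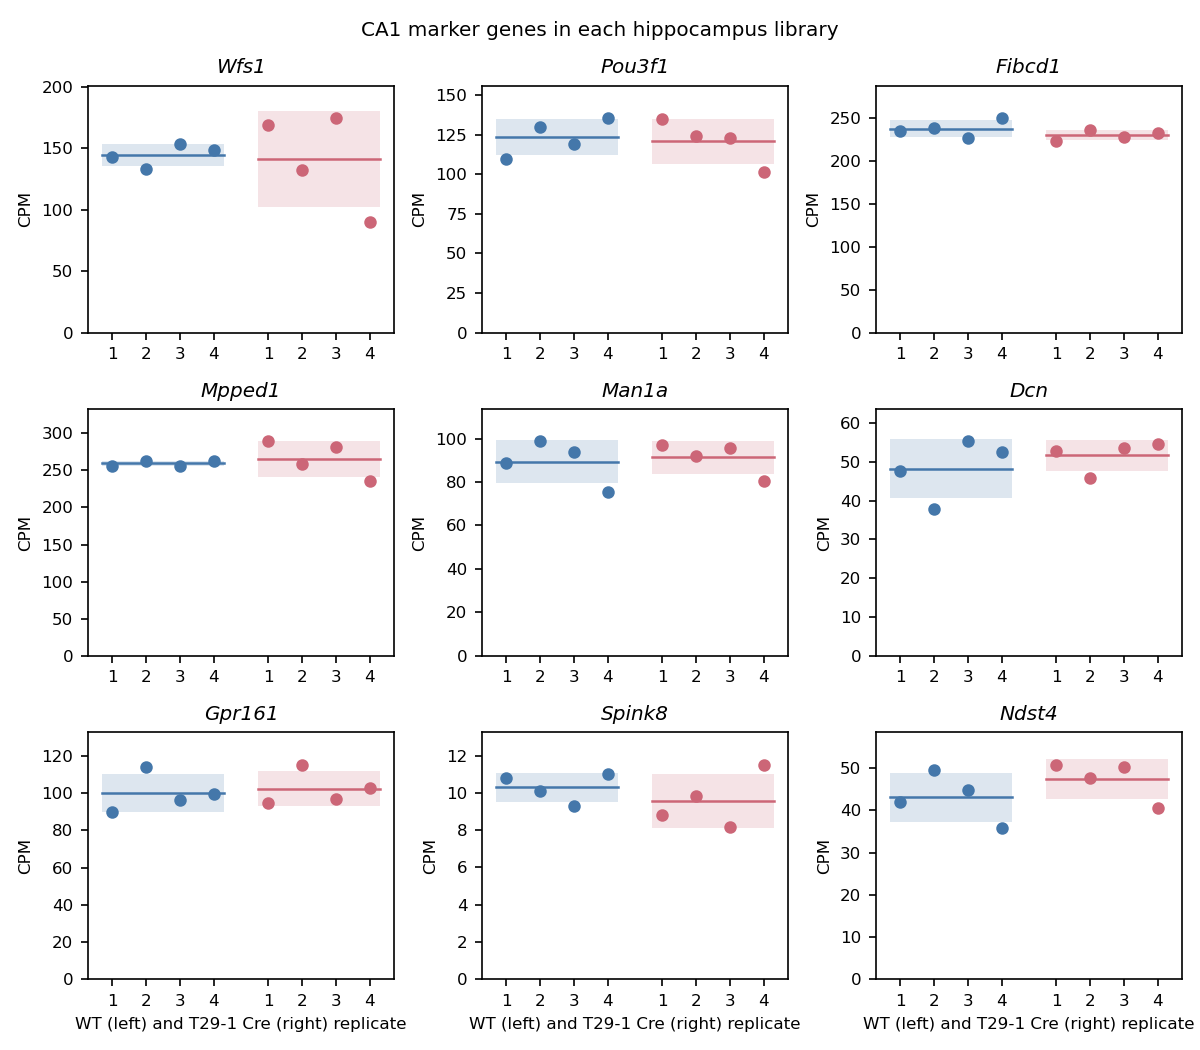
Each panel plots the CPM (TMM-scaled, y axis from 0) of a CA1 marker gene in the 4 WT libraries (blue, left) and the 4 T29-1 Cre libraries (red, right) by replicate number; lines are genotype means and bands 1 SD. Wfs1 in T29-1 Cre replicate 4, at 90.2 CPM, lies below all other libraries, which hold 132 to 175 CPM.

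The comparison of the genotypes asked whether carrying the Cre transgene goes with a different level of these CA1 genes. None of the 9 differed past the threshold: edgeR's quasi-likelihood test called 0 members at an adjusted p under 0.05, where 0.00625% of all genes tested (1 of 15996) were called. At an unadjusted p under 0.05 there were 0 members with edgeR, 0 with DESeq2 and 0 with limma-voom over all 8 libraries. Of all 15996 genes tested, 388, 267 and 385 were under it in the same order. With shares this low, 0 of 9 says little about the members. Ndst4 fell under 0.05 in 3 edgeR alternatives (with the replicate block, without WT replicate 2 and without T29-1 Cre replicate 4). 5 members had a higher and 4 a lower value in T29-1 Cre, and their median log2 fold change was 0.03, beside -0.00075 over all genes tested. The 95% confidence intervals of the 9 fold changes together spanned 0.783 to 1.26, so a change of any member outside these limits lies outside its interval. The libraries of the genotypes overlapped for each of the 9, where 1.81% of all genes did not overlap.

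The Golgi and matrix genes were Ndst4, Man1a and Dcn. Ndst4 was at 42.0, 49.7, 44.8 and 35.9 CPM in WT replicates 1 to 4 and at 50.9, 47.7, 50.4 and 40.6 CPM in T29-1 Cre replicates 1 to 4. 3 of the T29-1 Cre libraries lay above 3 of the 4 WT libraries, and the lowest library of each genotype was its replicate 4. The log2 fold change was 0.14 (SE 0.0921, edgeR adjusted p = 0.998, unadjusted p = 0.160), and it was 0.06 without WT replicate 4. It was 0.21 without WT replicate 2 and 0.20 without T29-1 Cre replicate 4, at unadjusted p-values of 0.0374 and 0.0379 and adjusted p-values of 0.982 and 0.999 (edgeR). Man1a was at 88.9, 98.7, 93.8 and 75.6 CPM in WT and 97.2, 92.1, 95.8 and 80.5 CPM in T29-1 Cre, and again the fourth library of each genotype was the lowest. Its log2 fold change was 0.03 (SE 0.0794), and -0.036 without WT replicate 4. Dcn was at 47.7, 37.8, 55.3 and 52.4 CPM in WT and 52.8, 45.9, 53.5 and 54.7 CPM in T29-1 Cre. The second replicate of each genotype was low for Dcn, and the log2 fold change of 0.10 (SE 0.0971) moved to -0.0013 without WT replicate 2 and to 0.14 without WT replicate 4.

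Fibcd1 was the steadiest of the 9, with 236, 239, 227 and 250.3 CPM in WT and 223, 237, 229 and 233 CPM in T29-1 Cre, a log2 fold change of -0.05 (SE 0.046). Its 95% interval, -0.14 to 0.05, was the narrowest. Mpped1 was at 256, 262, 256 and 263 CPM in WT and at 289, 259, 281 and 235 CPM in T29-1 Cre, so that T29-1 Cre replicates 1 and 3 lay above every WT library and replicate 4 below every one. Its log2 fold change was 0.04 (SE 0.0598), and -0.0063 without T29-1 Cre replicate 1.

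Wfs1 showed a similar layout on a wider scale. It was at 143, 133, 154 and 149 CPM in WT and at 169, 132, 175 and 90.2 CPM in T29-1 Cre. T29-1 Cre replicates 1 and 3 were above every WT library and T29-1 Cre replicates 2 and 4 below every one. The T29-1 Cre libraries averaged 142 ± 39.1 CPM and the WT libraries 145 ± 8.90 CPM (SD, n = 4 per genotype). The log2 fold change was -0.03, with a 95% interval of -0.35 to 0.29. Without T29-1 Cre replicate 4 the value was 0.13, at an unadjusted p of 0.150 (edgeR).

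Pou3f1 was at 109, 129.9, 119 and 135 CPM in WT and 135, 124, 123 and 101 CPM in T29-1 Cre, with the lowest value again in T29-1 Cre replicate 4. The log2 fold change was -0.03 (SE 0.0834), and it was 0.0157 without WT replicate 4 and 0.0435 without T29-1 Cre replicate 4. Part of its exon sequence, 330 bases, is shared with Gm2164 on the opposite strand, and 147 bases of Man1a with Gm16998 on the opposite strand. The strand setting of the counting is not given in the sources used here, so reads of these stretches cannot be told apart. Gpr161 was at 90.1, 114, 96.5 and 99.5 CPM in WT and 94.7, 115, 96.7 and 103 CPM in T29-1 Cre, highest in the second replicate of each genotype, with a log2 fold change of 0.03 (SE 0.0764) that was -0.0141 without WT replicate 1 and -0.0279 without T29-1 Cre replicate 2. Spink8 was at 10.8, 10.1, 9.30 and 10.99 CPM in WT and 8.80, 9.81, 8.16 and 11.5 CPM in T29-1 Cre. Its highest library was T29-1 Cre replicate 4, where Wfs1 was lowest, and its log2 fold change was -0.10 (SE 0.108). In the authors' deposited table the log2 fold changes of the 9 genes ran from -0.10 (Spink8) to 0.14 (Ndst4), with p-values of 0.148 to 0.867.

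**Figure D2:**
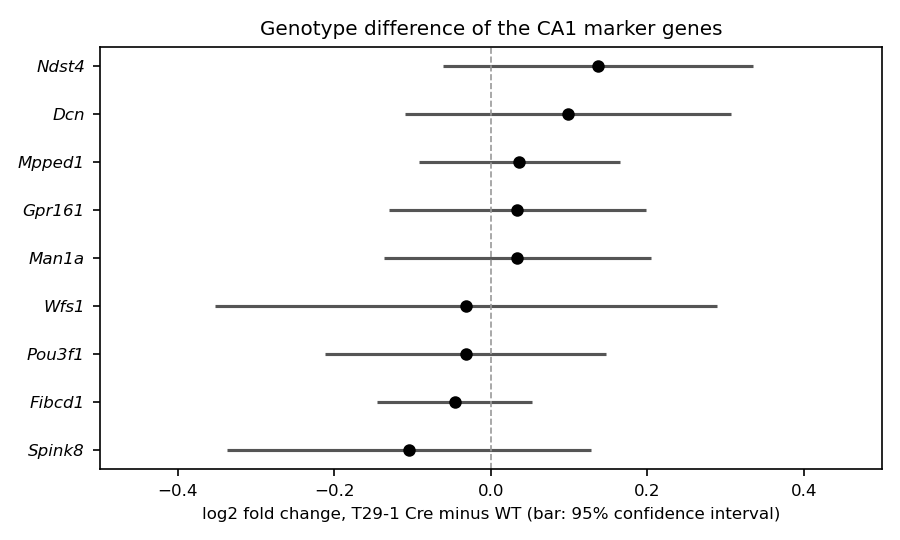
Points are the log2 fold changes of the 9 genes, T29-1 Cre minus WT (x axis), from edgeR over 8 libraries, and bars are 95% confidence intervals. Every interval includes 0, and that of Wfs1, -0.35 to 0.29, is the widest.

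8 of the 9 members varied more between libraries than the median gene of their level. The SD of log2 CPM over the 8 libraries was 0.297 for Wfs1, where the median of 1485 other genes within 1.5-fold of its mean level was 0.0745, and 99.6% of those genes had a lower SD. Dcn (SD 0.185) and Ndst4 (0.179) stood at 96.6% and 96.2% of 2842 and 2873 genes of their level. Pou3f1, Man1a and Gpr161 stood at 91.8%, 89.8% and 86.1%, and Spink8 and Mpped1 at 76.2% and 67.9%. Fibcd1 was below the middle, at 26.7%. Wfs1 counts ran from 2406 to 4836 reads per library, and the highest level was 1.94-fold the lowest. Single libraries weigh in these SDs. That of Wfs1 was 0.0898 over the WT and 0.440 over the T29-1 Cre libraries. Its T29-1 Cre replicate 4 lay at -0.64 from the mean of all libraries on the log2 scale. Ndst4 and Man1a lay at -0.33 and -0.25 in WT replicate 4. The standing of these genes without those libraries was not computed.

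The genes did not move between libraries as 1 group. Pearson's r of log2 CPM over the 8 libraries was positive for 19 of the 36 pairs of members and negative for 17, with a median of 0.0483, beside -0.00095 over all pairs of 11502 genes of at least 5 CPM. Every pair was tested by an exact two-sided permutation test over the 40320 pairings of the libraries, with Benjamini-Hochberg adjustment over the 36 pairs. 1 pair passed at an adjusted p under 0.05, and 7 had an unadjusted p under 0.05. With Spearman's rho, 0 pairs passed and 4 had an unadjusted p under 0.05.

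The pair that passed was Man1a with Ndst4, both enzymes of the Golgi that act on glycans. Pearson's r was 0.951 (exact p = 0.000372, adjusted p = 0.0134) and Spearman's rho 0.905 (exact p = 0.00456, adjusted p = 0.164), over n = 8 libraries. With the genotype means removed r was 0.991, and without WT replicate 4 and T29-1 Cre replicate 4, which are the libraries farthest from the median of Man1a, it was 0.865. The call was lost without WT replicate 1 or T29-1 Cre replicate 4 (r = 0.964 and 0.955, exact permutation adjusted p = 0.107 each) and kept without each of the other 6 libraries in turn. WT replicate 4, the library that stood apart, was the lowest for both genes and differed from the mean of the other WT libraries by -0.31 for Man1a and -0.34 for Ndst4 on the log2 scale. Their longest transcripts, of 5137 and 7417 bases with 45.4% and 39.3% G and C, were among the longer and GC-poorer of the 9. Dcn, at 4692 bases and 37.4%, lay 0.18 above the other WT libraries in WT replicate 4, and Gpr161, at 6862 bases and 50.0%, lay at -0.0039. Pou3f1 (63.9% G and C), Fibcd1 (59.4%), Wfs1 (57.8%) and Mpped1 (53.7%), at 3281 to 4751 bases, lay at 0.18, 0.10, 0.06 and 0.03. Spink8, at 768 bases and 46.0%, lay at 0.13. The part of transcript length or base composition in the pair was not tested.

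Without WT replicate 4, 3 pairs passed, Man1a with Ndst4, Pou3f1 with Man1a and Pou3f1 with Ndst4. Over all 8 libraries the latter pairs had an r of 0.255 and 0.264, and without WT replicate 4 it was 0.938 and 0.945. Pou3f1 was at its highest, 135 CPM, in that library, where Man1a and Ndst4 were lowest. Pairs with an r of at least 0.7 in either direction, a limit chosen with the values in view, numbered 7 of 36 (19.4%) over 8 libraries and 15 of 36 (41.7%) without WT replicate 4, where 14.1% and 9.41% of all pairs of genes of at least 5 CPM reached it. Without T29-1 Cre replicate 4 it was 9 of 36 (25.0%), where 18.6% of all pairs did. Without each of the other 6 libraries it was 7 to 10 pairs of members, and the share over all pairs was not computed for these.

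Wfs1 and Mpped1 had the next highest r, 0.885 (exact p = 0.00459, adjusted p = 0.0826; Spearman's rho 0.714, exact p = 0.0576, adjusted p = 0.346). It was 0.936 with the genotype means removed, 0.888 without WT replicate 4, and 0.701 without T29-1 Cre replicates 3 and 4, the libraries farthest from the median of Wfs1. Pou3f1 had an r of 0.756 with Mpped1 (exact p = 0.0305, adjusted p = 0.175; rho 0.81, exact p = 0.0218, adjusted p = 0.261). It was 0.501 without T29-1 Cre replicate 4, and 0.376 without that library and WT replicate 1, the libraries farthest from the median of Pou3f1. Neither pair passed the adjustment.

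Spink8 ran against most of the others. Its r was negative with 6 of the other 8 members and its median r with them was -0.595. It was -0.802 with Mpped1 (exact p = 0.0166), -0.784 with Ndst4 (exact p = 0.0219), -0.762 with Wfs1 (exact p = 0.0194) and -0.744 with Man1a (exact p = 0.0341), each over n = 8 libraries and with adjusted p-values of 0.158, 0.158, 0.158 and 0.175. Spearman's rho for the same 4 pairs was -0.643, -0.857, -0.762 and -0.714 (exact p = 0.0962, 0.0107, 0.0368 and 0.0576, adjusted p = 0.376, 0.193, 0.331 and 0.346). Leaving out the 2 libraries farthest from the median of the partner, or of Spink8 for the pair with Ndst4, gave an r of -0.700 for Mpped1, -0.767 for Ndst4, -0.530 for Wfs1 and -0.532 for Man1a. Spink8 rests on 226 to 307 reads per library, the fewest of the 9 genes.

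**Figure D3:**
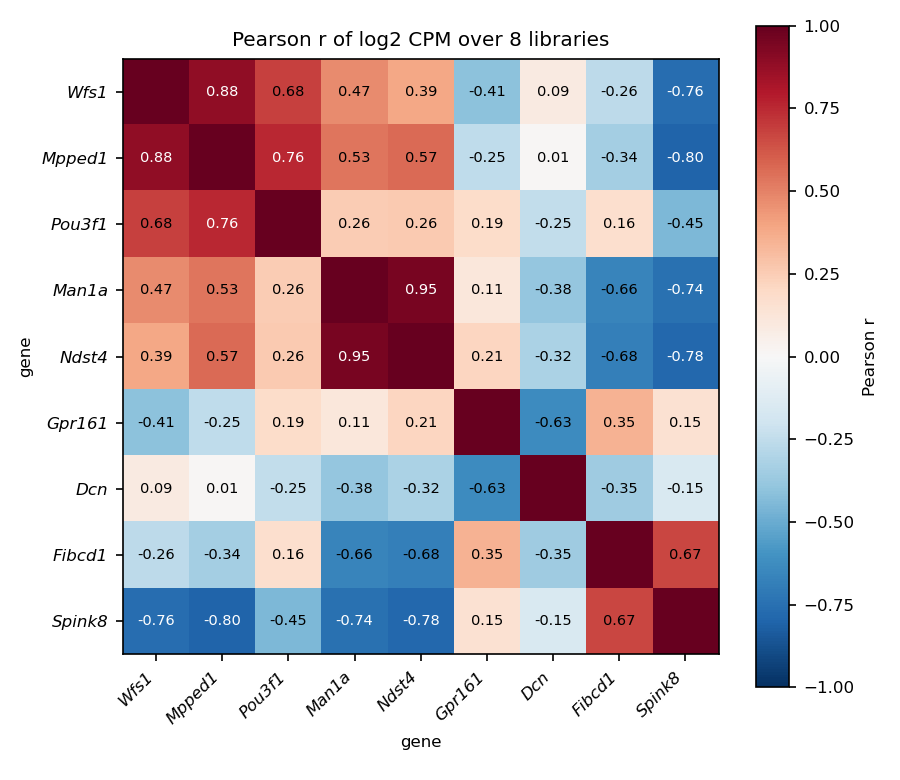
The grid gives Pearson's r of log2 CPM over 8 libraries for each pair of the 9 genes (red positive, blue negative; both axes list the genes). Man1a with Ndst4, at 0.95, is the pair that passed the adjusted test, and the row of Spink8 is negative for 6 of 8 partners.

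Dcn and Gpr161 were not part of either pattern. Their r with each other was -0.632 (exact p = 0.0873, adjusted p = 0.262; rho -0.381, exact p = 0.360, adjusted p = 0.648), and it changed sign, to 0.764, without WT replicate 2 and T29-1 Cre replicate 2. In these libraries Gpr161 was at its highest and Dcn at its lowest within each genotype. The r of Wfs1 with Dcn was 0.0879 (exact p = 0.790, adjusted p = 0.836; rho 0.357, exact p = 0.389, adjusted p = 0.668) over 8 libraries, and 0.760 without T29-1 Cre replicate 4.

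**Figure D4:**
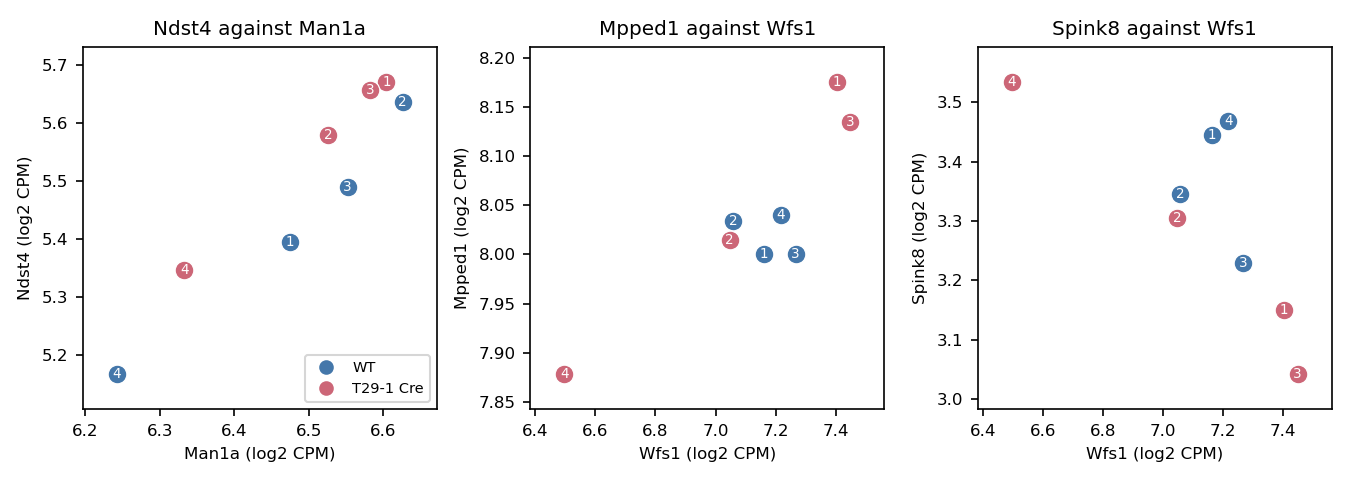
Each point is a library (blue WT, red T29-1 Cre, labelled by replicate number), placed by the log2 CPM of the genes on the axes. Man1a and Ndst4 rank the libraries alike, with WT replicate 4 lowest, whereas for Wfs1 with Mpped1 or Spink8 the T29-1 Cre replicates 1, 3 and 4 hold the ends of the range.

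T29-1 Cre replicates 1, 3 and 4 also differed in markers of other cells. The 6 CA3 markers summed to 298 CPM in T29-1 Cre replicate 4, the highest of all libraries, and to 199 and 201 CPM in T29-1 Cre replicates 1 and 3, the lowest, with 216 to 256 CPM in WT. In T29-1 Cre replicate 4 the median CA3 marker lay 0.35 above its mean over the libraries on the log2 scale, while Wfs1 lay at -0.64. The 9 markers of meningeal fibroblasts summed to 122 CPM in T29-1 Cre replicate 1 and 52.2 CPM in T29-1 Cre replicate 4, the highest and lowest of all, with 74.4 to 79.8 CPM in WT. The 9 neocortical and subicular markers summed to 467 and 455 CPM in T29-1 Cre replicates 1 and 3 and 332 CPM in T29-1 Cre replicate 4 (366 to 389 CPM in WT). Without Tshz2, a sum taken after its values were seen, the other 8 came to 343, 348 and 289.8 CPM in the same libraries, so that T29-1 Cre replicate 4 lay inside the WT range of 285 to 313 CPM. The 9 dentate granule cell markers summed to 552, 664 and 473 CPM in the same order of replicates 1, 3 and 4 (545 to 608 CPM in WT). Over the 4 libraries of each genotype the ranges of the genotypes overlapped for each of these lists. The part of these cells in the values of Wfs1, Mpped1 and Pou3f1 was not tested.

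Dcn is a fibroblast gene as well as a CA1 gene, and its values can be set beside the fibroblast markers directly. In T29-1 Cre replicate 4, where these markers were lowest (52.2 CPM), Dcn was at 54.7 CPM, the second highest of 8 libraries. In T29-1 Cre replicate 1, where they were highest (122 CPM), Dcn was at 52.8 CPM. In WT replicate 2 Dcn was lowest, at 37.8 CPM, and the fibroblast markers were at 74.7 CPM, inside the range of the other WT libraries. By the median deviation of these markers, -0.13 on the log2 scale, that library was the lowest of the WT libraries. In T29-1 Cre replicate 2 both were low, with Dcn at 45.9 CPM and the fibroblast markers at 64.7 CPM, below every WT library. The part of fibroblasts in the values of Dcn was not tested. The 8 endothelial and mural markers were at 225 to 303 CPM, with 229 CPM in T29-1 Cre replicate 4 and 303 CPM in T29-1 Cre replicate 1.

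**Figure D5:**
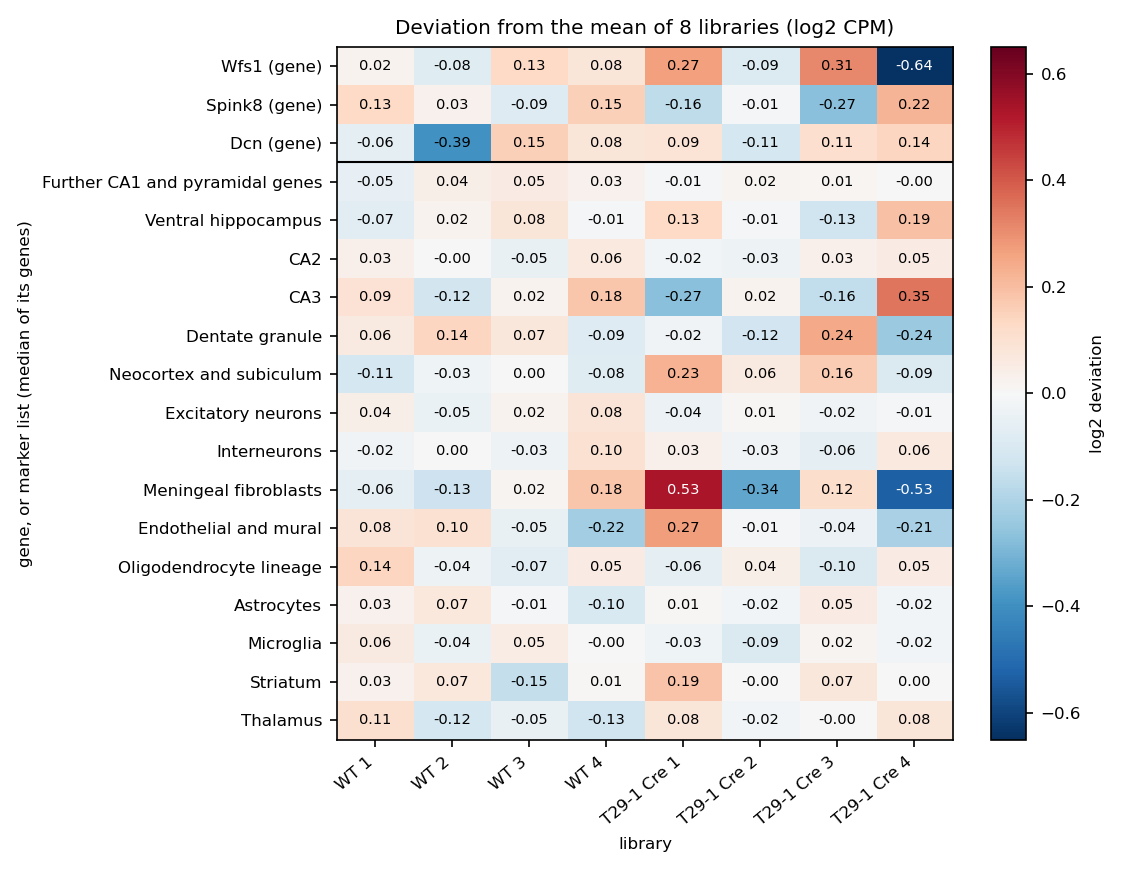
Colours and numbers give, for each library (x axis), the deviation from the mean of the 8 libraries in log2 CPM, for 3 CA1 genes (top) and as the median over the genes of each marker list shown (below). The list of the members and the choroid plexus list are not shown. In T29-1 Cre replicate 4, Wfs1 is at -0.64, the CA3 list at 0.35 and the meningeal fibroblast list at -0.53, while Dcn is at 0.14.

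Other genes of CA1 and of pyramidal cells, from a list of 9 that does not include the members, were not called either (edgeR, 0 of 9 at an adjusted p under 0.05). 5 had a higher and 4 a lower value in T29-1 Cre, with a median log2 fold change of 0.00078. Among them Itpka, an inositol trisphosphate kinase of dendritic spines, was at 274 ± 19.0 CPM in the T29-1 Cre and 291 ± 27.8 CPM in the WT libraries (SD, n = 4 per genotype; log2 fold change -0.09, SE 0.0695, edgeR adjusted p = 0.998). In T29-1 Cre replicate 4, the median of this list lay at -0.0036, where Wfs1 was at -0.64. The 7 genes of the ventral hippocampus lay at 0.19 in that library, and between the genotypes 0 of 7 were called, with a median log2 fold change of 0.05. Nr2f2, a nuclear receptor, was at 0.24 (SE 0.0975) and the serotonin receptor gene Htr2c at 0.09 among them, both at an edgeR adjusted p of 0.998.

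The genes whose levels most resembled the mean of the 9 members over the 8 libraries were screened among 11493 other genes of at least 5 CPM. They were Tshz2 (r = 0.973), Nrep (0.962), Tshz3 (0.961), Col5a1 (0.957) and Vopp1 (0.948), and 27 genes (0.235%) reached an r of 0.9. Tshz2, a zinc finger transcription factor gene that is also among the neocortical and subicular markers, was at 71.3, 79.9, 75.7 and 80.8 CPM in WT and at 124, 89.7, 108 and 42.6 CPM in T29-1 Cre. As for Mpped1 and Pou3f1, replicate 1 was the highest and replicate 4 the lowest of the T29-1 Cre libraries. For Wfs1 alone the closest were Ilf2 (r = 0.967), 9130024F11Rik (0.962), Khdrbs2 (0.961), Zscan21 (0.958) and Fam84b (0.956), of which Fam84b ran from 13.8 CPM in T29-1 Cre replicate 4 to 27.4 CPM in T29-1 Cre replicate 3 and Ilf2 from 63.2 to 66.9 CPM. These likenesses were picked as the highest among all genes screened, over 8 points that share T29-1 Cre replicate 4, and are a description with no test.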

How the data were processed

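Per the submitters' processing notes, reads were handled with STAR 2.6.1d, featureCounts and edgeR 3.11 on build GRCm38. For the annotation release and the strand setting, the sources used here give nothing. The authors deposited whole-number read counts per gene name for 8 libraries, and a comparison table that lists per gene the p-value, the log2 fold change and the mean level as CPM and as log2 CPM. Per the labels' protocols, poly(A) RNA from 500 ng of total RNA was made into directional libraries and read as pairs of 150 bp on a single lane.

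The analysis of the counts used edgeR 4.0.16 under R 4.3.3. Genes were kept by filterByExpr (minimum count 10, minimum total 15), scaled by TMM, and tested with the quasi-likelihood F test with no covariate and Benjamini-Hochberg adjustment over 15996 genes. Log2 CPM used a prior count of 2. Standard errors are the log2 fold change over the square root of F. Exon lengths and overlaps are from GENCODE M21 on GRCm38, matched by name. Libraries of the same genotype differed from each other by more than sampling noise (chi-square over degrees of freedom, 3.32 to 19.2), so none was treated as the same library deposited again. Correlations used exact permutation of libraries. Alternatives were DESeq2 1.42.0, limma-voom (limma 3.58.1), RLE and upper quartile scaling, 2 filters, a replicate block, Spearman's rho, CPM, genotype-centred values and each library left out. The scripts were tested on simulated data.

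The members and marker lists were chosen with earlier results of these data known. Named were the members, of each list at most the 2 genes with the smallest p, and the 5 genes most like the members or Wfs1. Others were named after their values were seen. 1 result that this rule names is not reported here. Intervals and SDs cover these libraries only.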

Additional observations from a re-analysis of the deposited data

How the results depend on the processing

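The count of members called was 0 in each of the 15 alternatives for the genotype comparison, and the smallest adjusted p of any member in any of them was 0.892. The sign of a member's log2 fold change differed from the main one in 8 of 135 recomputed values, none of them called. The count of all genes called was 1 in the main analysis and 2 with no filter on low counts and with the replicate block (the cause was not tested), and it was 1 without each library in turn. No replicate number paired the libraries: same-numbered libraries correlated at -0.141 to 0.126 in their deviations from the genotype means, and 1 of 4 WT libraries correlated best with its own number. With the replicate block 0 members were called, and Ndst4 had a log2 fold change of 0.14 (edgeR unadjusted p = 0.0454, adjusted p = 0.997). The number of member pairs that passed was 1 in the main analysis, 1 with RLE scaling, CPM values or the genotype means removed, and 0 with Spearman's rho (the cause was not tested). It ran from 0 to 3 with each library left out. The median pairwise r was 0.0483 in the main analysis and -0.0952 with Spearman's rho, and it ran from -0.114 to 0.0476 with each library left out. The number of libraries, 8, limits which pairs can pass the adjustment over 36 pairs. In none of 18 groups of 4 libraries (9 genes, 2 genotypes) was a member's value far enough from the others to pass Dixon's limit at the 95% level.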

Other observations

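Of the 104 tested genes in the marker lists other than the members, 0 were called by edgeR and 5 fell under 0.05 in unadjusted p, where 388 of all 15996 genes tested did. The 5 were Nr2f2, Cux2, Drd1, Ttr and Clic6, each with a higher value in T29-1 Cre. Cux2, a transcription factor gene of upper cortical layers, averaged 34.5 ± 3.57 CPM in the T29-1 Cre and 31.0 ± 0.871 CPM in the WT libraries (SD, n = 4 per genotype), with its highest value, 38.2 CPM, in T29-1 Cre replicate 1. Drd1, a dopamine receptor gene, averaged 4.27 ± 0.746 and 3.36 ± 0.450 CPM in the same order, also highest in that library at 5.10 CPM. All 9 neocortical and subicular markers had a higher value in T29-1 Cre, with a median log2 fold change of 0.10 and 0 called. Of all 15996 genes tested, 7955 had a higher value. The T29-1 Cre libraries were not alike in these markers, which summed to 467, 414, 455 and 332 CPM in replicates 1 to 4. The WT libraries held 366 to 389 CPM, so T29-1 Cre replicate 4 lay below every one, though inside their range without Tshz2.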
